A study of Mus musculus with 21 samples.

Results

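PTBP1 contacts near the beginning of genes are described here: the crosslink sites that fell in the first 2 kb of long protein-coding genes in cultured mouse B cells. A site is 1 nucleotide at which PTBP1 was crosslinked to RNA, and its height is its cDNA count. Sites were taken from the authors' pooled list, kept where they lay in exactly 1 protein-coding RefSeq gene span of at least 10 kb (GRCm38), without Ebf1, and read along the strand given by the sign of the score. Of 244659 pooled sites, 201954 lay in such spans, in 6058 genes, and 5399 of these, in 983 genes, lay within the first 2 kb. They made up 2.67% of the long-span sites (exact 95% interval 2.6 to 2.74, counting error only, since neighbouring sites are not independent) and their genes 16.2% of the genes with a site.

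PTBP1 (polypyrimidine tract binding protein 1) is an RNA-binding protein that contacts stretches of U and C and is best known for repressing or favouring exons from the introns beside them. It also acts on mRNA stability, on translation through 5′ untranslated regions, and on its own paralogues, whose mRNAs it sends to decay by changing their splicing. The first 2 kb of a gene span usually holds the first exon and the beginning of the first intron, where the nascent RNA emerges soon after transcription starts. In B cells the protein has been linked to antibody responses in germinal centres, the structures in which activated B cells divide in a dark zone (DZ) and are selected in a light zone (LZ).

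The sites come from iCLIP, which recovers the nucleotide at which a protein is joined to RNA by ultraviolet light, in 5 libraries. The B cells were taken from spleens of female mice and kept with LPS (lipopolysaccharide) for 48 h. RNA levels come from 16 mRNA libraries of splenic germinal centre B cells of C57BL/6 mice sorted 7 days after NP-KLH in alum: LZ cKO, LZ control, DZ cKO and DZ control, with 4 libraries each. The cKO mice were CD79acre/+Ptbp1fl/fl and the control mice CD79a+/+Ptbp1fl/fl, so both carried floxed Ptbp1 and only cKO mice carried the Cre allele in Cd79a, which acts throughout the B lineage. The effects of that allele and of the loss of PTBP1 cannot be told apart. Spleens of 3 to 5 mice, alike in genotype and sex, were pooled and gave 1 LZ and 1 DZ library, libraries 1 and 2 were from males, libraries 3 and 4 from females, and the number marks the day of sort. Library totals over genes were 26823882 to 34240096 counts. In these bulk samples, fewer cells with an RNA and less RNA per cell cannot be told apart. The crosslinked cells were LPS cultures and not germinal centre cells.

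The sequences under some sites could be read, since 77 sites of the first 2 kb, in 38 genes, lay in a RefSeq promoter window (250 bases before to 50 after an annotated start, GRCm38.p6). Shown are the 30 bases around the tallest of a gene's sites that lay in such a window, not always its tallest in the first 2 kb. They are given for the genes with 10 or more cDNAs in the window, and for Prkd2 and Pkm, which come back below. Gtf2a1 and Arhgdib are added, as they have the highest share of C and T. Letters are DNA letters of the RNA's strand, 5′ to 3′, and capitals mark the crosslinked bases.
Rnf24: gcgcggcgccgccCCTCccccgccgggccc
Adam19: accaccaaccccctcCtccgcgtggcgcct
Evc: ggaaaggctgaaagTTTggggcggcgggtc
Suz12: ctcggaggagacaCTTTTtttttttcctcc
Elk3: gcgggggcgcgcgggGcgtgcgggcgggcg
Prkd2: ccgactttcacgaccTgtgagagtctcTTc
Pkm: cgactcgtcttcactTgactgacgtccgct
Arhgdib: ctctctctCtcaacTTccttcctgttctgc
Gtf2a1: ttttttttttttctTTTTtttttttttttT
The windows lie at chr2:131352873-131352902 on the minus strand for Rnf24, chr11:46055912-46055941 on the plus strand for Adam19, chr11:79993122-79993151 on the plus strand for Suz12 and chr7:16843074-16843103 on the plus strand for Prkd2. Rnf24 and Suz12 show a run of adjacent crosslinked pyrimidines, whereas Elk3, with its site 10 nt into the span, shows a single crosslinked G in a stretch with a C and T share of 30.0%.

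Over all 77 windows, 58 of the crosslinked bases were T or C, with 44 T, 14 C, 15 G and 4 A. The share of C and T averaged 55.1% over the 38 genes (SD 19.9 over genes), from 6.67% to 96.0%, against 49.0% over all 32851 annotated starts at the same places in the window. At least 1 of 4 motifs, whose letters overlap, was found (TCTT as the first, TTCT as the second, CTTT as the third and CTCT as the fourth) in 50.6% of the windows, against 34.1% of all starts at the same places. With the same motifs searched on the opposite strand, 11.7% of the windows held one, against 36.1% of all starts. By gene, 16 of 38 held a motif in a window. For 96 sites elsewhere in long spans that also fell in a promoter window, in 31 genes, the mean share of C and T was 69.6% (SD 13.5 over genes) and 27 genes held a motif. These are descriptions with no test, and they cover few of the 5399 sites.

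In the pooled list, sites were sparse at the very start and more frequent further in. The first 500 nt held 807 sites in 239 genes, the next 500 nt 1221, the third 1711 and the last 1660. Replicate list 3 differed, with 28.1% of its sites of the first 2 kb in the first 500 nt and 14.8% in the last 500 nt, against 12.5% to 16.6% and 31.8% to 36.6% in the other lists. Mean height in these 4 stretches was 2.18, 1.62, 1.44 and 1.49 cDNAs, and the median was 1 cDNA in each. In the 100 nt on either side of the 2 kb limit, 302 sites lay just inside and 331 just outside, both with a mean height of 1.44. Spans of 10 to 11 kb, just inside the length limit, held 204 of the sites, and spans of 9 to 10 kb, just outside, held 100. The sign of the score matched the annotated strand for 4108 sites in 774 genes and was opposite to it for 37 sites in 13 genes. By the annotated strand these 37 sites lie in the last 2 kb of their genes, and the tall site of Zcchc14 (11 cDNAs) is among them. For 1254 sites in 196 genes, Ikzf3 among them, the tables used give no strand, and the direction rests on the sign alone.

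**Figure D1:**
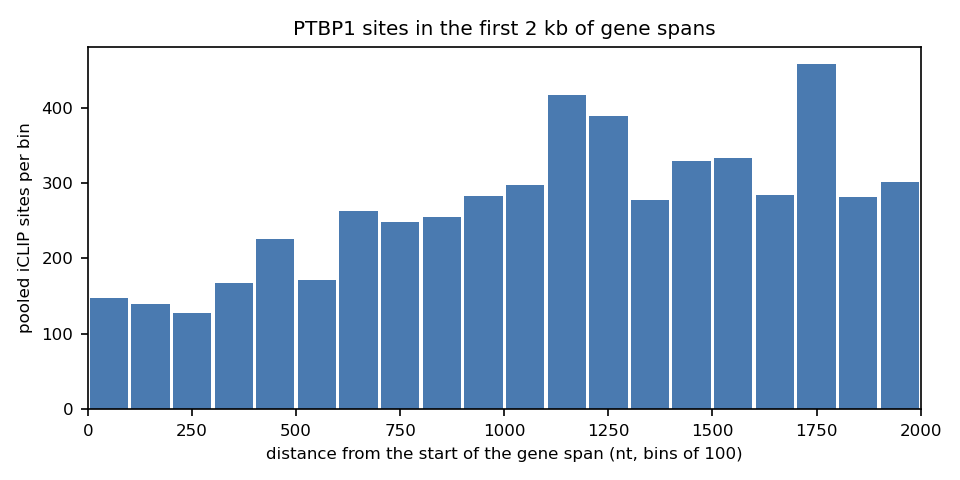
Number of pooled iCLIP sites (y axis) by distance from the first base of the gene span in nt (x axis, bins of 100 nt), summed over 983 genes. Bars are counts in 1 pooled list. The first 500 nt hold 807 sites and the stretch from 1000 to 1499 nt holds 1711.

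The end of the span was not always the annotated start of the gene, and some genes had several starts. Of 774 genes with a strand, 172 had more than 1 annotated start. Of the 4108 sense sites, 2129, in 397 genes, had a nearest upstream start other than the end of the span. The 397 genes outnumber the 172, so in part of them a single annotated start differed from the end of the span. For these 2129 sites, distances given from the span's start are not distances from the nearest annotated start. Within 200 nt of the span's own start there were 189 sense sites, and within 200 nt of the nearest upstream start there were 263. The single Adam19 site, at 1425 nt into the span, lies in the promoter window of a start inside the span.

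Per kb and summed over spans, the first 2 kb held more sites than the rest of the spans in every replicate list, although replicate 3 stood apart from the others. Long spans weigh more in the rest than in the first 2 kb, so the ratio is not a comparison within each gene. Its list was the smallest, with 6211 sites against 17573 to 45505 in the others, and 5.86% of its long-span sites lay in the first 2 kb, against 2.57% to 3.32% in the others. Site density in the first 2 kb, over spans with a site in that list, was 0.0877, 0.138, 0.0983, 0.152 and 0.13 per kb in lists 1 to 5. In the rest of the spans it was 0.0575, 0.0806, 0.0229, 0.116 and 0.075 per kb. The log2 ratio averaged 0.94 (SD 0.67, n = 5 lists), higher in 5 of 5 lists, with p = 0.0625 by an exact two-sided sign-flip permutation, the smallest p that 5 lists allow, and 0.1875 adjusted over the 3 comparisons of this kind. Without replicate 3 the mean log2 ratio was 0.64, and over 1 fixed set of spans (those with a pooled site) it was 0.65. With a window of 1 kb it was 0.602 and with a window of 5 kb 1.124, so the higher density was not particular to the first 2 kb. In the pooled list, over that fixed set, the density was 0.46 per kb in the first 2 kb and 0.367 per kb in the rest, a ratio of 1.25. The last 2 kb of the same spans held 12268 sites at 1.06 per kb.

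Most sites were 1 cDNA high. In the first 2 kb 73.1% had a single cDNA, 16.2% had 2, 10.2% had 3 to 9 and 26 sites had 10 or more, while in the rest of the spans 74.2% had a single cDNA. The mean height was 1.61 cDNAs in the first 2 kb and 1.53 in the rest. By list, the log2 ratio of the mean heights was -0.24, -0.01, 0.77, 0.13 and -0.08. It averaged 0.115 (SD 0.39, n = 5), higher in 2 of 5 lists (exact sign-flip permutation, p = 0.75, also after adjustment), and without replicate 3 or without the Brd1 site it was -0.049 and 0.011. With sense sites alone it was 0.306 (exact sign-flip permutation, p = 0.0625, the smallest that 5 lists allow), and with a window of 1 kb 0.393 (p = 0.125). The size and the sign of the ratio thus varied with the sites and lists used.

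A pair of shapes gave the highest totals. Single tall sites were chosen as those of 10 or more cDNAs and broad runs as 20 or more sites with gaps of at most 15 nt, both cutoffs set after the values were seen. The 26 tall sites, in 19 genes, held 8.88% of the cDNAs, 19 of them stood in runs of fewer than 10 sites and 3 in broad runs, and 11 lay in the first 500 nt. The 10 broad runs, 50 to 131 nt wide and in 10 genes, held 294 sites and 608 cDNAs with no site above 17 cDNAs, and 1 of them began in the first 500 nt. All told, the 5399 sites formed 1497 runs, of which 229 were a single site. The 129 genes with at least 10 sites held 45.6% of the sites, the median gene had 3, and 144 genes had 1.

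Broad runs were seen in several genes of B cell function. Bcl11a, a zinc finger transcription factor required for B cell development, had 65 sites and 188 cDNAs between 1515 and 1696 nt. Of these, 55 sites and 175 cDNAs formed 1 run of 111 nt at chr11:24078079-24078189. Its cDNA counts in lists 1 to 5 were 2, 67, 8, 48 and 29. Pou2af1, the coactivator of the octamer-binding factors that germinal centres need, had 47 sites and 96 cDNAs spread from 40 to 1746 nt, with 13, 26, 3, 21 and 5 cDNAs in the lists. Both had counts in all 5 lists, although replicate 1 gave few for Bcl11a and replicate 3 few for Pou2af1.

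The Fc receptor-like genes Fcrl1 and Fcrl5, which encode receptors of the B cell surface, had 47 sites each, with 87 and 78 cDNAs. Fcrl5 held a broad run of 20 sites, while the sites of Fcrl1 were spread over 8 shorter runs. Swap70, a Rac-binding protein that works on actin in B cells, had 38 sites and 67 cDNAs, 32 of the sites in a run of 107 nt. Ccnd2, a cyclin of the G1 phase, had 37 sites in a single run of 131 nt and 53 cDNAs, and none of them was called in a replicate list. Other broad runs lay in A630001G21Rik, Cacna1e, BC005537, Cd83 and Ppp1r18. The share of a gene's sites that lay in the first 2 kb varied widely among these genes. It was 3.92% of 613 sites in Cacna1e, 6.83% of 951 in Bcl11a, 7.25% of 524 in Swap70 and 8.83% of 532 in Pou2af1, against 63.0% of 54 in Ppp1r18 and 89.7% of 68 in BC005537.

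Tall sites were found in 19 genes, among them Bcl11a, Pou2af1, Fcrl1 and A630001G21Rik, which are also given above. Brd1, a scaffold of histone acetyltransferase complexes, held the tallest: 220 cDNAs at 1 nucleotide, chr15:88733808, 420 nt into the span, with 123 cDNAs in list 3, 97 in list 4 and 0 in lists 1, 2 and 5. The barcodes allow 256 distinct molecules per position. Cenpv, a centromere protein, had 102 cDNAs at 3 sites around 843 nt, 20 of them in list 3 and 82 in list 4 and 0 in the others. Both rest on the same pair of libraries. Atp11a, a phospholipid flippase, had 85 cDNAs on 2 adjacent nucleotides at 403 nt, with 2, 28, 25, 14 and 16 cDNAs in lists 1 to 5, and Rnf24, a RING finger protein, had 45 cDNAs on 4 adjacent nucleotides 3 to 6 nt from its start, with 6, 17, 11, 6 and 5. These 2 genes were seen in every list. Atp11a, Rnf24 and Cenpv had no other site in their spans.

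Slc22a29, of the organic anion transporter family, stood between the shapes, with 19 of its 21 sites and 108 of its 112 cDNAs inside 26 nt. Its first 2 kb had 7, 45, 19, 14 and 23 cDNAs in the lists, although its mRNA count was 0 in 15 of 16 germinal centre libraries and 6 in the other. Slc22a genes have close copies, and reads of copies may be placed at either.

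**Figure D2:**
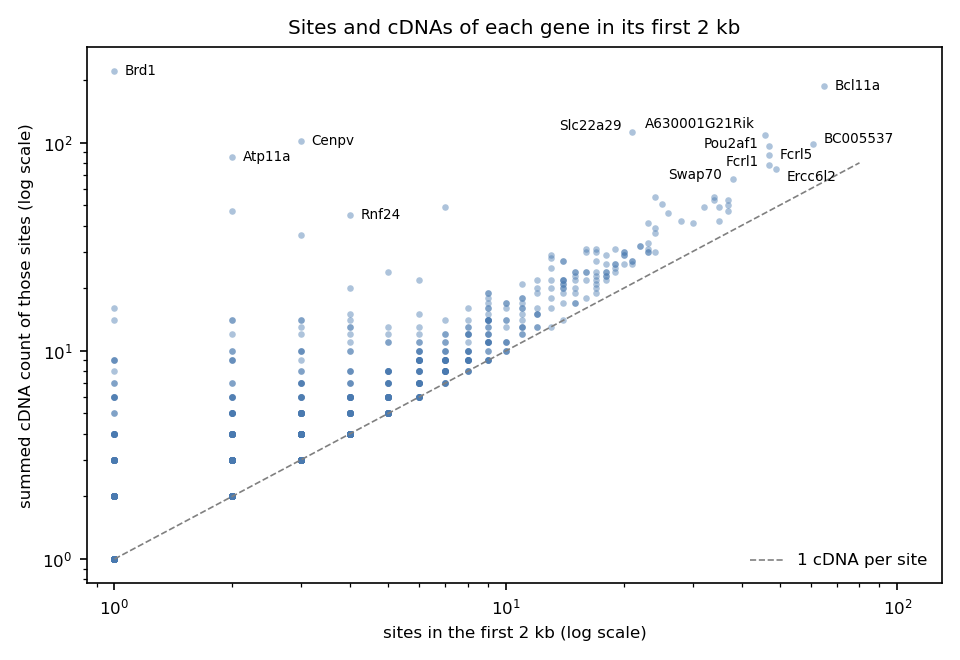
Each point is 1 of 983 genes, with the number of its sites in the first 2 kb (x axis, log scale) and their summed cDNA count (y axis, log scale). The dashed line marks 1 cDNA per site. Brd1 with 220 cDNAs at 1 site and Bcl11a with 188 cDNAs at 65 sites mark both extremes.

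**Figure D3:**
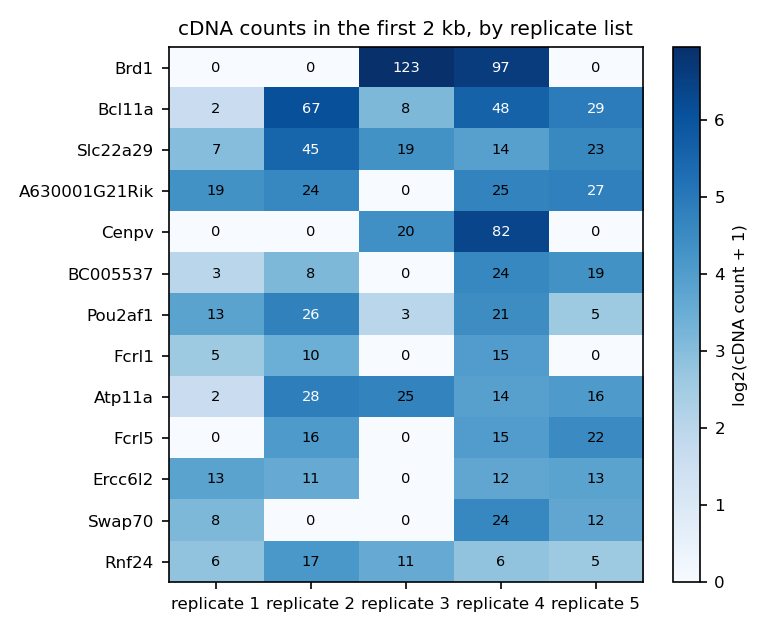
Summed cDNA counts in the first 2 kb for 13 genes (rows) in the 5 replicate lists (columns), printed in each cell and shaded by log2(cDNA count + 1). Brd1 and Cenpv have counts in lists 3 and 4 and 0 in the others, while Bcl11a, Slc22a29, Pou2af1, Atp11a and Rnf24 have counts in all 5.

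Support by single lists was low in the first 2 kb and in the rest of the spans alike. At the same nucleotide, 3421 of the 5399 sites (63.4%) were in 0 lists, 1741 in 1, 169 in 2, 41 in 3, 24 in 4 and 3 in all 5, while 65.5% of the sites in the rest were in 0 lists. The authors summed the libraries before calling the pooled list. Mean heights were 1.29 for sites in 0 lists, 5.40 in 2 and 14.8 in 4. The pooled height sums the same 5 libraries, so height and number of lists are tied by construction. Per list, the share of pooled sites found was higher by a mean of 0.665 percentage points in the first 2 kb (SD 1.12, n = 5), in 3 of 5 lists (exact sign-flip permutation, p = 0.25, adjusted 0.375). It was 0.405 points without replicate 3. By gene, 520 of 983 had no site of the first 2 kb in any list, 317 had one in 1 list, 90 in 2, 34 in 3, 17 in 4 and 5 in all 5, the genes Bcl11a, Slc22a29, Pou2af1, Atp11a and Rnf24.

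Genes with a site at the start had more sites altogether. Their median was 23 sites over the whole span, against 8 in the 5075 genes with sites elsewhere only, and their median span was 35.5 kb against 44.8 kb. A gene with many sites is likelier to have one in the first 2 kb, and the 23 counts those sites too. The difference in sites thus follows in part from the way the genes were chosen. A site in the last 2 kb was present in 334 of the 983 genes (34.0%), against 1283 of the 5075 (25.3%). In 166 genes the only sites were those in the first 2 kb. The number of sites and the span length differ between the sets, their part in these values was not tested, and the gene groups below are given without a test.

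Among the gene lists, B cell transcription factors had the most cDNAs at the start: 10 of 26 with any site had one in the first 2 kb, with 182 sites and 404 cDNAs, against 16.2% over all genes. They were Bcl11a, Pou2af1, Ikzf3, Irf8, Irf4, Elf1, Pax5, Pou2f1, Fli1 and Myb. Genes of actin, adhesion and migration followed, with 13 of 35 (117 sites), led by Swap70 and Msn (moesin, which links actin to the membrane; 17 sites, 31 cDNAs). B cell receptor signalling had 11 of 32 (117 sites), led by the inhibitory coreceptor Cd22 (18 sites, 29 cDNAs) and the protein kinase Prkcb (18 sites, 26 cDNAs).

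Of hnRNP and SR splicing regulators, 9 of 33 had a site, with 117 sites in all. Tra2a, an SR-like splicing activator, had 34 sites and 55 cDNAs in 4 lists, 56.7% of all its sites, and Celf1 and Srsf3 had 19 sites each. Genes of the cell cycle had 10 of 32, chromatin regulators 10 of 46 with Chd2 (19 sites, 31 cDNAs) first, survival genes 4 of 11, translation 4 of 11 with the poly(A)-binding protein Pabpc1 (23 sites, 33 cDNAs), NF-κB genes 3 of 15, antigen presentation 3 of 8 and glycolysis 2 of 22. The list of interferon-stimulated genes had 0 of 14, which holds for that list only. Trim34a, an interferon-induced gene not on the list, had 8 sites.

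Genes that PTBP1 is known to regulate by splicing in other cells had 4 of 13: Mbnl1, Pkm, Ptbp3 and Sptan1. Pkm, the pyruvate kinase whose alternative exons PTBP1 selects, had 12 sites and 15 cDNAs between 24 and 444 nt, none of them in a replicate list. Within its own family, Ptbp1 had 8 sites and 9 cDNAs from 1843 to 1864 nt of its span, Ptbp3 had 2 sites, and Ptbp2 had none in the first 2 kb.

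To ask whether these genes' RNA differed in germinal centre cells without PTBP1, all 15789 genes that passed the filter on low counts were fitted together with edgeR. Of the 983 genes, 978 matched 1 Ensembl identifier and 925 were tested, while 53 were filtered out for low counts. In the light zone 12 of 925 passed (1.30%), 8 higher and 4 lower in cKO, against 1.08% of all genes tested. In the dark zone 11 passed (1.19%), 5 higher and 6 lower, against 0.627% of all genes. The counts of both zones, and those over all genes, include Ptbp1, the deleted gene. With the day of sort as a replicate block the counts were 59 (6.38%, all genes 5.5%) and 36 (3.89%, all genes 3.27%). Of 4556 genes with sites elsewhere in the span only, 1.29% were called in the light zone and 0.988% in the dark zone, and of 3773 long genes without a site 1.33% and 0.583%. In the light zone the shares of the 3 sets lay close together. The 3 sets differ in level, with a median log2 CPM of 6.29, 5.65 and 2.59, and calls depend on level.

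Median log2 fold changes of the 925 genes were -0.007 in the light zone and -0.018 in the dark zone, against 0.019 and 0.011 over all genes tested. Their 25th to 75th percentiles ran from -0.129 to 0.157 in the light zone and from -0.127 to 0.100 in the dark zone. Between zones, 0 of 925 genes differed in their response by edgeR (lowest adjusted p = 1.0, 28 genes at an unadjusted p under 0.05) and 0 by DESeq2. A call in 1 zone only, as given below, is therefore not a shown difference between zones.

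**Figure D4:**
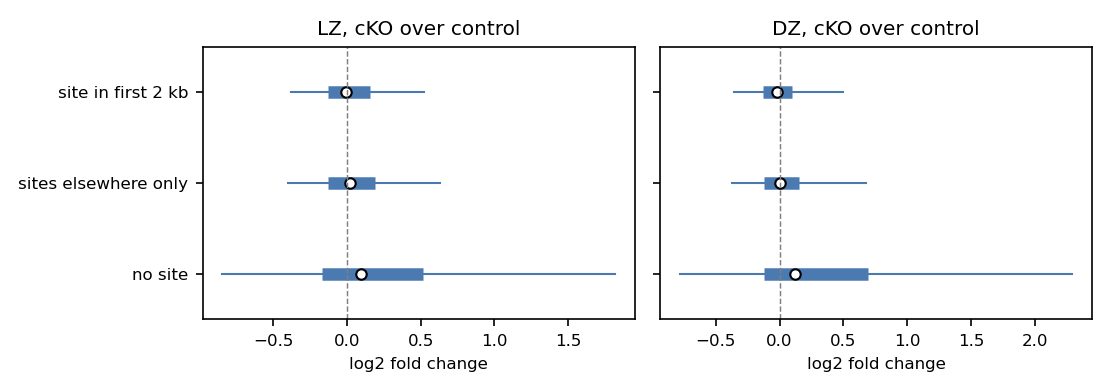
Log2 fold changes, cKO over control (x axis), in LZ (left) and DZ (right) for genes with a site in the first 2 kb, with sites elsewhere only and without a site in spans of at least 10 kb. Points are medians, thick lines the 25th to 75th percentile and thin lines the 5th to 95th percentile of genes. The medians of the first set are -0.007 and -0.018, and genes without a site, which have the lowest levels, spread widest.

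The deleted gene is itself among the 983. Ptbp1 was at 94.4, 96.2, 121.4 and 82.5 CPM in LZ cKO libraries 1 to 4, against 367, 353, 419.8 and 388 CPM in LZ control libraries, and averaged 103 ± 9.45 CPM in DZ cKO and 444 ± 31.4 CPM in DZ control (SD, n = 4 each). The groups did not overlap, and the log2 fold changes were -1.95 ± 0.11 (SE; adjusted p = 1.83e-07) and -2.10 ± 0.11 (adjusted p = 6.67e-08). Counts over the whole gene cannot tell deleted from intact transcripts. Its paralogue Ptbp2, without a site in the first 2 kb, averaged 159 ± 29.7 CPM in LZ cKO and 13.2 ± 3.38 CPM in LZ control, a rise of 3.6 ± 0.22 (adjusted p = 2.05e-07). In the dark zone it averaged 215.5 ± 50.3 CPM in cKO and 16 ± 2.31 CPM in control.

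Ikzf3 (Aiolos), a zinc finger transcription factor of the Ikaros family, rose in both zones and was the only one of the 10 B cell transcription factors with a 5′ site to be called in either. Its level was 952, 952, 883 and 1002 CPM in LZ cKO, against 415, 365, 384 and 426 CPM in LZ control. Dark zone levels were 863, 891, 901 and 1024 CPM in cKO, against 427, 429, 442.5 and 502 CPM in control. Every cKO library lay above every control library, by a log2 fold change of 1.25 ± 0.08 (adjusted p = 3.65e-07) and 1.03 ± 0.08 (adjusted p = 4.29e-06). Its first 2 kb had 26 sites and 46 cDNAs between 661 and 1531 nt, with 0, 11, 0, 3 and 8 cDNAs in the lists, 9.74% of the 267 sites in the gene.

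Adam19, a membrane metalloprotease, was at 30.1, 26.0, 15.6 and 17.5 CPM in LZ cKO, against 10.7, 13.9, 9.50 and 11.1 CPM in LZ control. It averaged 20.5 ± 2.93 CPM in DZ cKO and 9.90 ± 1.15 CPM in DZ control. No libraries of the groups overlapped (0.98 ± 0.20, adjusted p = 0.0283, and 1.05 ± 0.20, adjusted p = 0.0232). The light zone call was lost without LZ control library 1, 3 or 4 or LZ cKO library 1 or 2 (adjusted p up to 0.102), and the dark zone call without DZ control library 1, 2 or 3 or DZ cKO library 1 or 2 (up to 0.0881). Its site, 1 nucleotide of 14 cDNAs shown above, had 2, 2, 7, 0 and 2 cDNAs in the lists and was 1 of 50 sites in the gene.

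Fcgr2b, the inhibitory IgG receptor of B cells, rose slightly: 249, 277, 268 and 276 CPM in LZ cKO against 221, 212, 222 and 219 CPM in LZ control, and 213, 227, 207 and 237 CPM in DZ cKO against 169.6, 165, 188 and 175 CPM in DZ control. The groups did not overlap, with changes of 0.29 ± 0.065 (adjusted p = 0.0436) and 0.34 ± 0.065 (adjusted p = 0.0241). Omitting any 1 library other than LZ cKO library 1 ended the light zone call (adjusted p up to 0.13), and omitting DZ control library 1, 2 or 4 or DZ cKO library 2 or 4 ended the dark zone call (up to 0.098). It had 12 sites and 20 cDNAs in the first 2 kb. St8sia4, a polysialyltransferase, averaged 134 ± 15.1 CPM in LZ cKO and 89.1 ± 3.90 CPM in LZ control (0.59 ± 0.093, adjusted p = 0.00605), and 113 ± 10.9 CPM in DZ cKO and 91.0 ± 7.45 CPM in DZ control, where it did not pass (adjusted p = 0.155).

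Ifnar2, a chain of the type I interferon receptor, was at 29.2, 40.9, 30.5 and 27.5 CPM in DZ cKO, against 19.0, 18.9, 17.5 and 17.3 CPM in DZ control (0.82 ± 0.17, adjusted p = 0.0402), a call lost when any 1 of the 8 libraries was omitted (adjusted p 0.0518 to 0.138). Trim34a, an interferon-induced TRIM protein with close copies, averaged 40.9 ± 3.91 CPM in LZ cKO and 26.3 ± 2.02 CPM in LZ control (0.64 ± 0.099, adjusted p = 0.00539). In the dark zone it averaged 33.6 ± 1.66 CPM in cKO and 25.6 ± 2.32 CPM in control, where it did not pass (0.39 ± 0.099, adjusted p = 0.0897). Sp100, a component of PML nuclear bodies with close copies, was at 302, 366, 323 and 361 CPM in DZ cKO, against 419.7, 497.5, 522.5 and 477 CPM in DZ control. It fell by 0.50 on the log2 scale in the dark zone (-0.50 ± 0.088, adjusted p = 0.0132; 0.0518 without DZ control library 3).

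Nlrc4, an inflammasome sensor, averaged 30.5 ± 5.88 CPM in LZ cKO and 18.7 ± 0.485 CPM in LZ control (0.70 ± 0.14, adjusted p = 0.0280), and was lost without any 1 LZ control library or without LZ cKO library 1 or 2 (up to 0.0931). The summed level of 11 macrophage markers, of 12 listed, ranged from 79.7 to 489.6 CPM in LZ cKO and from 23.2 to 386 CPM in LZ control, with 0 of them called, and its part in this result was not tested.

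Ppl, Phactr2 and, in the dark zone, Unc45a changed by over 1 log2 unit, and none of them was on a gene list used here. Ppl (periplakin, a plakin of cell junctions and intermediate filaments) was at 51.2, 72.0, 57.1 and 57.6 CPM in LZ cKO, against 16.9, 23.2, 12.2 and 19.2 CPM in LZ control (1.74 ± 0.30, adjusted p = 0.0112). Its dark zone levels were 25.3, 28.1, 10.6 and 26.6 CPM in cKO, against 5.98, 9.89, 7.98 and 4.03 CPM in control (1.70 ± 0.31, adjusted p = 0.0169, lost without DZ control library 1 or 4 or DZ cKO library 2 or 4, up to 0.0571). No cKO library overlapped a control library. Phactr2, a phosphatase and actin regulator, averaged 6.60 ± 1.17 CPM in LZ cKO and 2.19 ± 1.11 CPM in LZ control (1.59 ± 0.29, adjusted p = 0.0180, lost without LZ control library 1, 3 or 4 or LZ cKO library 2, up to 0.0711). In the dark zone it averaged 6.03 ± 0.826 CPM in cKO and 2.40 ± 0.338 CPM in control, where it missed the threshold (adjusted p = 0.0554) but passed with the replicate block (0.0194) and with DESeq2 (0.000775).

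Unc45a, a chaperone of myosin, fell in both zones. It was at 53.5, 57.2, 50.9 and 38.5 CPM in LZ cKO against 89.6, 107, 94.8 and 99.9 CPM in LZ control (-0.97 ± 0.17, adjusted p = 0.0104), and at 53.9, 46.2, 28.1 and 44.1 CPM in DZ cKO against 78.9, 99.1, 97.5 and 104 CPM in DZ control (-1.14 ± 0.17, adjusted p = 0.00372). Every cKO library was below every control library, and the calls held without any 1 library (highest adjusted p = 0.0377 in LZ and 0.0148 in DZ). Contact at the start of these 3 genes was thin: Ppl had 2 sites and 2 cDNAs, Phactr2 1 site and 3 cDNAs, and Unc45a 1 site and 1 cDNA, each in 0 replicate lists.

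The other calls given here were changes of less than 1 log2 unit in transport, signalling and less characterised genes. Slc28a2, a nucleoside transporter with a close copy, averaged 112 ± 13.7 CPM in DZ cKO and 179 ± 12.6 CPM in DZ control (-0.67 ± 0.092, adjusted p = 0.00200). Prkd2, a serine/threonine kinase of the protein kinase D family, averaged 168.5 ± 20.4 CPM in DZ cKO and 233 ± 21.1 CPM in DZ control (-0.47 ± 0.10, adjusted p = 0.0484), lost on omission of any 1 library other than DZ control library 1 (up to 0.124) and with RLE scaling (0.0562). With 18 sites and 23 cDNAs from 187 to 481 nt, it had the most sites among the called genes after Ikzf3.

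Jpt1 averaged 439.8 ± 40.8 CPM in LZ cKO and 597 ± 35.5 CPM in LZ control (-0.44 ± 0.092, adjusted p = 0.0303). That call was lost without LZ control library 1, 3 or 4 or LZ cKO library 1, 2 or 3 (up to 0.108), and in DZ, where Jpt1 did not pass (adjusted p = 0.297), it passed with the replicate block (0.0382). Mdfic, which holds a MyoD family inhibitor domain, averaged 21 ± 1.6 CPM in DZ cKO and 31 ± 2.98 CPM in DZ control (-0.56 ± 0.11, adjusted p = 0.0345). It was lost without DZ control library 1, 2 or 3 or DZ cKO library 1, 2 or 4 (up to 0.126), and in LZ, where it did not pass (adjusted p = 0.07), it passed with the replicate block (0.0439), with DESeq2 (0.00781) and without LZ control library 3. Of the 12 light zone calls 6 held without any 1 library (Ptbp1, Ppl, Ikzf3, Unc45a, Trim34a and St8sia4), and of the 11 dark zone calls 4 did (Ptbp1, Ikzf3, Unc45a and Slc28a2). Without the filter on low counts, which raises the number of genes tested, Fcgr2b (0.117 in LZ, 0.0743 in DZ), Jpt1 (0.0635), Mdfic (0.0649) and Prkd2 (0.0727) no longer passed by adjusted p. In all, 17 genes were called in at least 1 zone and 6 in both, namely Ptbp1, Ikzf3, Adam19, Ppl, Unc45a and Fcgr2b.

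**Figure D5:**
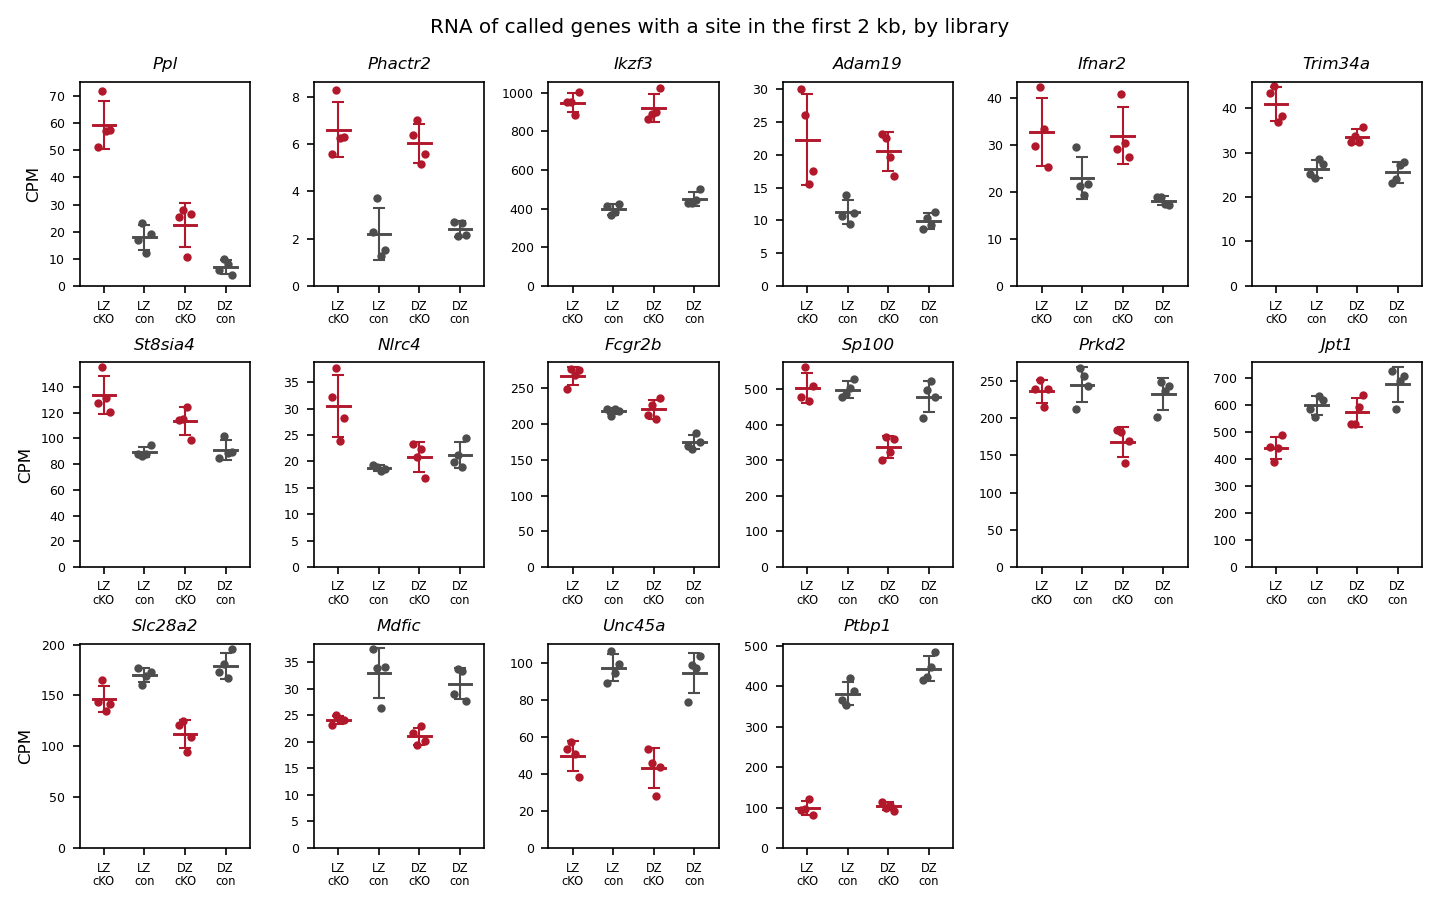
CPM (y axis, from 0) of 16 of the 17 genes called in LZ or DZ, with 1 point for each of the 4 libraries of LZ cKO, LZ control (con), DZ cKO and DZ control, and bars for mean and SD. Ikzf3, Ppl and Adam19 lie higher in every cKO library than in any control library of the same zone, and Ptbp1 and Unc45a lower.

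The 12 genes with the most PTBP1 cDNAs at their start were not among those called. Of them, 11 were tested and 0 passed in either zone by edgeR, with or without the replicate block. Over all genes tested 1.08% were called in LZ and 0.627% in DZ, and with the block 5.5% and 3.27%. With 11 genes, 0 calls is near these shares. Bcl11a was at 219, 213, 199 and 216 CPM in LZ cKO, against 201, 177, 159 and 212 CPM in LZ control (0.18 ± 0.11, adjusted p = 0.513), and averaged 129 ± 14 CPM in DZ cKO and 129 ± 14.8 CPM in DZ control. Pou2af1 was at 1018, 1042, 1328 and 1479 CPM in LZ cKO, against 1132, 970.3, 1426 and 1396 CPM in LZ control. In both genes the libraries of the groups overlapped. Fcrl1 averaged 278 ± 43.5 CPM in LZ cKO and 224 ± 16.2 CPM in LZ control (0.31 ± 0.11, adjusted p = 0.232), and Swap70 averaged 1114 ± 129 CPM in LZ cKO and 1164 ± 141 CPM in LZ control. A630001G21Rik averaged 75.7 ± 10.2 CPM in DZ cKO and 100.0 ± 11.8 CPM in DZ control, without overlap (-0.40 ± 0.16). Its adjusted p by edgeR was 0.315, and 0.0527 with the replicate block.

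Among genes with tall single sites, Brd1, Atp11a, Cenpv and Rnf24 did not pass in either zone. Adam19, with 1 site of 14 cDNAs, was called in both zones, as given above. Brd1 averaged 74.6 ± 6.53 CPM in LZ cKO and 67.1 ± 15.5 CPM in LZ control, and 73.2 ± 12.3 CPM in DZ cKO and 73.0 ± 12.5 CPM in DZ control. Atp11a averaged 28.2 ± 2.80 CPM in LZ cKO and 22.5 ± 3.18 CPM in LZ control (0.32 ± 0.13, adjusted p = 0.295). Cenpv averaged 45.1 ± 7.91 CPM in DZ cKO and 36.5 ± 3.63 CPM in DZ control (0.30 ± 0.18, adjusted p = 0.571), and Rnf24 5.96 ± 1.56 CPM in DZ cKO and 3.64 ± 1.41 CPM in DZ control (0.71 ± 0.33, adjusted p = 0.438). A missed threshold does not show that these RNAs were equal, and counts per gene do not see changes of splicing.

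Apart from Ptbp1 and Ikzf3, no list member with a site in the first 2 kb passed in either zone by edgeR without the block. That gave 0 of the 9 splicing regulators, 0 of the 11 signalling genes, 0 of the 13 actin and adhesion genes and 0 of the 10 chromatin regulators. Of all genes tested 1.08% passed in LZ and 0.627% in DZ, so 0 calls in lists of this size is near that share. Over the whole lists, medians were -0.15 in LZ and -0.11 in DZ for splicing regulators, 0.08 and -0.04 for B cell receptor signalling, -0.01 and 0.00 for B cell transcription factors and 0.53 and 0.50 for interferon-stimulated genes, beside 0.019 and 0.011 over all genes tested. Among the list genes named here, Casp8, Pkm and Bcl2 passed with the replicate block, and Casp8 also with DESeq2 (adjusted p = 0.0052 in LZ and 0.00283 in DZ) and with upper-quartile scaling, in both zones. Casp8, an initiator caspase with 21 sites and 27 cDNAs, averaged 101 ± 7.81 CPM in LZ cKO and 130.1 ± 14.5 CPM in LZ control (adjusted p = 0.0595 without the block and 0.00760 with it), and 101 ± 5.48 CPM in DZ cKO and 133 ± 9.03 CPM in DZ control (0.0541 and 0.00652).

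Pkm averaged 789.5 ± 113 CPM in LZ cKO and 932 ± 90.1 CPM in LZ control (adjusted p = 0.366 without the block and 0.0193 with it). Bcl2, the antiapoptotic protein, with 3 sites, was at 21.9, 18.9, 8.07 and 7.15 CPM in DZ cKO, against 5.45, 12.8, 3.69 and 3.04 CPM in DZ control (0.420 without the block and 0.00854 with it). Its level was higher in libraries 1 and 2, from males, than in libraries 3 and 4, from females, within both genotypes, and the cKO library exceeded the control library on each of the 4 sort days, although the groups overlapped.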

How the data were processed

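Per the labels' protocols, the mRNA libraries were made from 2 ng of RNA, and the deposited values are raw counts per Ensembl gene, made with Trim Galore 0.4.2, HISAT2 and HTSeq on GRCm38 per the submitters' processing notes. The sources used here give no strand setting for counting, so overlapping genes and close copies are uncertain. Lines naming no gene held 41.4% to 49.8% of entries and were left out. The deposited iCLIP score is a signed cDNA count, where the sign gives the strand. Per the file headers, sites passed a false discovery rate of 0.05 over 100 permutations within 15 nt, and the pooled list was called after the authors summed the replicates. Bowtie and GRCm38 are named in the submitters' processing notes. A control immunoprecipitation was not analysed here.

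Differential expression used edgeR 4.0.16 (TMM, minimum count 10, robust quasi-likelihood, 16 libraries in 1 fit, Benjamini-Hochberg adjustment over 15789 genes, call at 0.05). DESeq2 1.42.0 was an alternative. CPM are TMM-scaled, and fold changes carry SEs. The edgeR fit was tested on simulated counts, and the site assignment and the permutation on made-up values. DESeq2 was not tested in this way. RefSeq spans, starts and sequences are of GRCm38.p6. List comparisons were exact two-sided sign-flip permutations over 5 lists.

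Members and gene lists were chosen with earlier results of these data known. Named genes were the 12 with most cDNAs in the first 2 kb, those in all 5 lists, every called gene and up to 3 per gene list, some of which are not reported here. The labels tie the replicate number to the day of sort and to the pool, and deviations of libraries sharing a number correlated at 0.0944 to 0.39, so the numbers pair the libraries. The main fit used group means alone and left this pairing out, also when single libraries were omitted. The replicate block takes in the day of sort, but not the pool shared by an LZ and a DZ library. No pair of libraries agreed within sampling noise, so each counts once. Labels do not say whether iCLIP libraries came from separate animals, so those p-values measure the spread between libraries.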

Additional observations from a re-analysis of the deposited data

Results flagged for a closer look

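Replicate list 3 lay apart from the other 4 iCLIP lists in 3 measures: the share of its long-span sites in the first 2 kb (5.86%, next 3.32%), their mean height (2.45 cDNAs, next 1.61, and 1.84 without Brd1) and the log2 ratio of densities (2.11, next 0.80). It was also the smallest list. No cause was tested.

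Single mRNA libraries far from the other 3 of their group were found for Ppl in DZ cKO (library 3, 10.6 CPM, next 25.3), Ptbp2 in DZ cKO (library 3, 290.4 CPM, next 195.3), Brd1 in DZ cKO (library 3, 54.9 CPM), Casp8 in DZ cKO (library 3, 108.8 CPM), Atp11a in DZ cKO (library 4, 25.3 CPM), Cenpv in DZ control (library 3, 31.1 CPM) and Rnf24 in LZ control (library 3, 5.14 CPM) and DZ control (library 2, 5.74 CPM). Chance alone gives about 1 such value in 20 groups, and 119 groups were checked, of which 11 were picked out in all.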

How the results depend on the processing

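The numbers of sites and genes follow the window: 2028 sites in 501 genes within 1 kb, 16217 in 2121 within 5 kb, 1451 in 648 with at least 2 cDNAs, and 1497 runs after merging sites within 15 nt. The higher density kept its direction in every alternative, with log2 ratios of 0.643 to 1.071 without 1 list (exact sign-flip permutation, p = 0.125, the smallest that 4 lists allow). The log2 ratio was 0.602 with a 1 kb window and 1.124 with a 5 kb window. The height ratio changed sign with a 5 kb window (-0.013) and without list 3 (range without 1 list -0.049 to 0.203), with median heights it was 0.0, and it was 0.306 with sense sites alone and 0.393 with a 1 kb window. The support difference was 0.405 to 1.056 points without 1 list. The merging, the fit without Brd1 and the fixed set of spans were chosen after seeing the data.

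Counts of called genes depend on the fit. In the light zone, against 12, they were 59 with the replicate block, 39 with DESeq2, 6 with light zone libraries alone, 2 with males and 2 with females alone, 6 to 10 without 1 library, and 7 (1.53% of those tested), 29 (1.43%) and 5 (3.76%) with a 1 kb window, a 5 kb window and a site in at least 2 lists. In the dark zone, against 11, they were 36, 32, 6, 1, 1, 5 to 9, and 4 (0.871%), 20 (0.985%) and 5 (3.76%). Over all genes tested, 171 (1.08%) were called in LZ and 99 (0.627%) in DZ. These shares also apply to the window and list settings. With the block the calls were 868 and 517, with DESeq2 587 of 12927 and 490 of 16123. With the libraries of 1 zone alone they were 98 of 14472 and 52 of 14550. With males alone they were 3 and 2, with females alone 9 and 4. Both counts of 5 include Ptbp1, the deleted gene. The 12 and the 11 genes were all called again with the block and with DESeq2. The cause was not tested. Over 120 values of 60 named genes, none called was of opposite sign in any of the 1920 alternatives. The comparison of C and T around all sites with other gene sites was not run, as no genome was used here. Single cDNAs make up most sites, which limits what 1 list can show.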
